A study of Homo sapiens with 20 samples.

Results

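EGR1, EGR2 and EGR3 are zinc finger transcription factors of the early growth response family, and NR4A1 and NR4A2 are orphan nuclear receptors of the NUR77 family. These 5 genes were chosen by their Ensembl gene IDs (EGR1 ENSG00000120738, EGR2 ENSG00000122877, EGR3 ENSG00000179388, NR4A1 ENSG00000123358, NR4A2 ENSG00000153234) out of 19029 IDs in the count tables, and all 5 were found in all 4 tables. The choice was made with the response of EGR1 to i14G1-12 already known, so the treatment values of the 5 genes are given as a description, and the tests are kept to differences between immunoprecipitations. The other IDs have no names in the sources used here, so lists of other immediate early genes and of markers of the cell line were not analysed here.

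The cells were HEK 293T, a transformed line of human embryonic kidney origin that the labels call WT. They were held for 1 h in 5 µM i14G1-12 or for 1 h in DMSO, the solvent. The compound is known as a small molecule inhibitor of the binding between eIF4G1 and eIF1. After formaldehyde crosslinking and RNase digestion, small ribosomal subunit complexes were pulled down through HA for eIF1, eIF4G1, HA for eIF2a, or eIF3, and their mRNA footprints were sequenced. The sources used here do not say how the HA tag was brought into the cells. There were 3 i14G1-12 and 3 DMSO libraries for eIF1 (called a, b and c, because their column numbers are not the replicate numbers) and for eIF4G1, and 2 and 2 for eIF2a and eIF3. Total counts lay between 10033 and 1161512 per library, and the shallowest were eIF2a DMSO 2 with 10033 and eIF3 DMSO 2 with 59179. In these a count of 0 allows up to 159 and 41.7 CPM, which is counts scaled to a common library size (taking 3 counts as the limit), against 2.67 to 19.2 CPM in the other 18. Levels are relative to all RNA recovered in the same pulldown and were scaled over the 20 libraries together with edgeR's TMM factors. More mRNA in the cell and more initiation complexes per mRNA cannot be told apart, since no input was analysed here. Nothing in the labels tells whether replicates came from separate cultures, and the p-values therefore reflect library-to-library spread that may be technical.

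As background, immediate early genes are transcribed within minutes of a growth factor, stress or depolarising signal without new protein synthesis, and their mRNAs are short-lived. Serum response factor, bound at CArG boxes with ETS-family partners that MAP kinases phosphorylate, and CREB, bound at cAMP response elements (CRE), are the best known activators of EGR1. EGR proteins bind GC-rich sites, and NR4A receptors bind the NBRE element as monomers without a known physiological ligand. In initiation, eIF4G1 joins the mRNA cap complex to the small subunit through eIF3, eIF2 carries the initiator tRNA, and eIF1 guards start codon selection during scanning.

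EGR1 lies on chromosome 5 (chr5:138465479-138469303, GRCh38.p14), EGR2 at chr10:62811996-62819167, NR4A1 at chr12:52022832-52059503 and NR4A2 at chr2:156324437-156332721. RefSeq's promoter windows held 1 start site for EGR1, 3 for EGR2 and 2 for NR4A1. The EGR1 window is shown because EGR1 carried most of the response. Its 250 bases before the start site (chr5:138465229-138465478, plus strand, RefSeq GRCh38.p14) read as follows, with CArG boxes and CRE half-sites (TGACG, both strands) in capitals.
EGR1: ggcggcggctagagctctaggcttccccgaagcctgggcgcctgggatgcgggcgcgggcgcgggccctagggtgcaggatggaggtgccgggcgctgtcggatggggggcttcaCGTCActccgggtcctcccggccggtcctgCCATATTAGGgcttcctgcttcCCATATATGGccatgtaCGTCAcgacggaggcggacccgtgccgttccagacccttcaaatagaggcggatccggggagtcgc
The CArG boxes start 105 and 83 bases before the start site, and the CRE half-sites 135 and 66 bases before it. A CArG box was present in 1.16% of 35116 windows of this length, and 2 or more in 0.0313%. A CRE half-site was present in 21.2% of the windows and 2 or more in 4.76%. The full CRE TGACGTCA (1.65% of windows), the EGR site GCGTGGGCG (0.72%), the NBRE AAAGGTCA (1.05%) and the GC box GGGCGG (42.6%), each searched on both strands, had no match in the EGR1 window.

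One of the 3 EGR2 windows also had a CArG box, followed after 7 bases by a CRE half-site, as in EGR1. These 22-base stretches are set side by side because they are the 2 windows of 35116 with CGTCA 7 bases after a CArG box, searched on both strands. The half-site was searched in this orientation only at that spacing. Spacing and orientation were chosen after the EGR1 window was seen. They lie at chr5:138465396-138465417 on the plus strand and chr10:62816416-62816437 on the minus strand. Of the 22 bases 18 are identical, but much of this was set by the search for the CArG box and the half-site. All bases that differ lie in the 7 between these motifs.
EGR1: CCATATATGGccatgtaCGTCA
EGR2: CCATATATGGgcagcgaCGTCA
Capitals mark the CArG box and the CRE half-site. That EGR2 window had a second half-site 110 bases before its start site. The EGR2 stretch lies inside the span of the gene, before the innermost of its 3 start sites. The 2 NR4A1 windows and the other 2 EGR2 windows had neither motif.

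EGR1, the founding immediate early gene of its family, was higher in every i14G1-12 library than in any DMSO library of the same immunoprecipitation, although the eIF2a DMSO 2 library was too shallow to bear on it. In eIF1 complexes it had 56, 34 and 37 counts in i14G1-12 libraries a, b and c, at 168, 67.3 and 89.7 CPM, against 10, 11 and 4 counts in DMSO libraries a, b and c, at 11.6, 12.8 and 5.74 CPM. The lowest i14G1-12 library was thus above the highest DMSO library, and library a was the highest of the treated ones. The group means were 108 ± 52.8 CPM in i14G1-12 and 10.05 ± 3.79 CPM in DMSO (SD, n = 3 each), and the log2 fold change was 3.32 (SE 0.43), the largest of the 8338 genes tested. The pooled ratio was 9.82, with an exact 95% interval of 6.36 to 15.7 that covers counting error only, like every interval on a ratio or share here.

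In eIF4G1 complexes EGR1 had 111, 62 and 162 counts in i14G1-12 libraries 1, 2 and 3, at 394, 165 and 144 CPM, against 13, 2 and 1 counts in DMSO, at 12.5, 5.20 and 3.98 CPM. The groups were far apart, and i14G1-12 library 1 stood above the other treated libraries. The means were 234 ± 139 CPM in i14G1-12 and 7.24 ± 4.62 CPM in DMSO (SD, n = 3 each). The pooled ratio was 19.7 (11.9 to 34.8). The log2 fold change was 4.66 (SE 0.51), the second largest of 7203 genes, and 5.53 without DMSO 1, the deepest eIF4G1 DMSO library.

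In eIF3 complexes EGR1 had 139 and 59 counts in i14G1-12, at 504 and 233 CPM, against 2 and 1 counts in DMSO, at 3.19 and 13.9 CPM. This group had the highest mean EGR1 level, and the DMSO side rested on 3 counts in all. The pooled levels were 374 CPM in i14G1-12 and 4.29 CPM in DMSO, a ratio of 87.2 with an exact 95% interval of 29.4 to 426. The fitted log2 fold change was 6.13 (SE 0.97), the largest of 6300 genes, and 4.59 without DMSO 1, when the shallow DMSO 2 is the sole control.

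In eIF2a complexes EGR1 had 7 and 6 counts in i14G1-12, at 44.8 and 24.3 CPM, against 0 and 0 counts in DMSO, where the limits set by 3 counts are 11.0 and 159 CPM. It did not pass the filter on low counts (a minimum of 10) and was not tested. Pooled over the group, the level was 32.2 CPM in i14G1-12, at least 3.13-fold higher than the 10.3 CPM that 3 counts over the DMSO group allow when the i14G1-12 level is taken as measured. The exact 95% interval of the ratio, which also covers counting error in i14G1-12, began at 2.20. DMSO 2 alone could not have shown the i14G1-12 level at its depth.

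**Figure D1:**
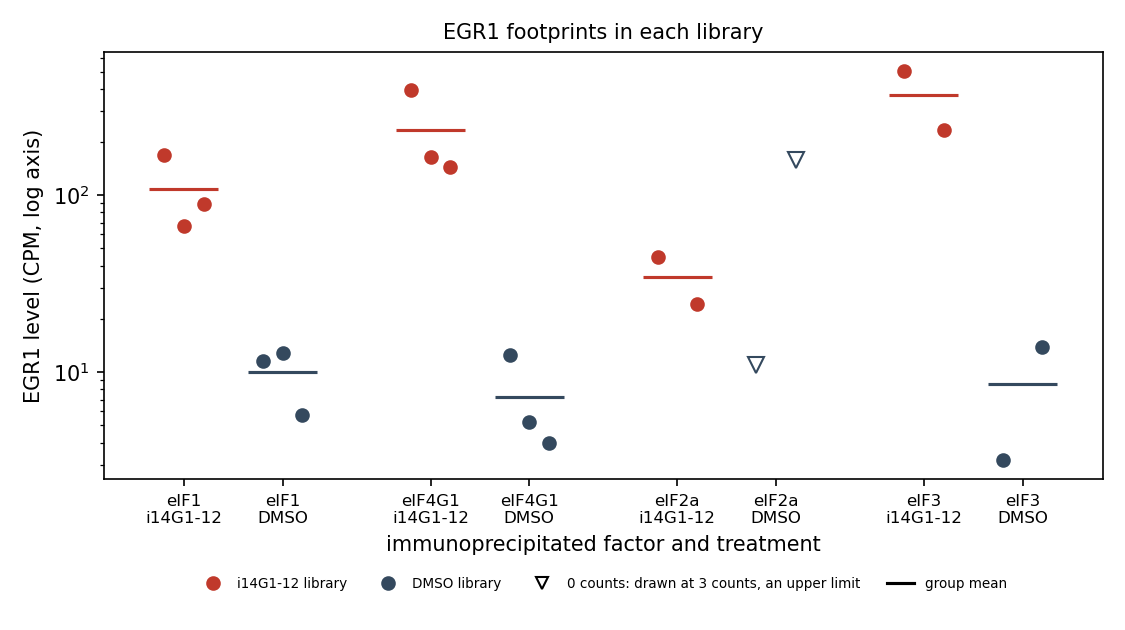
EGR1 level in CPM on a log axis, by immunoprecipitated factor and treatment, with each library as a point, group means as lines, and libraries with 0 counts as open triangles at the level of 3 counts. The i14G1-12 libraries lie between 24.3 and 504 CPM, and the DMSO libraries with EGR1 reads between 3.19 and 13.9 CPM.

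edgeR's quasi-likelihood test called 27 rises of 8338 genes in eIF1 (0.324%), 25 of 7203 in eIF4G1 (0.347%), 1 of 6300 in eIF3 (0.0159%) and 0 of 4719 in eIF2a (0%). In eIF2a 87 genes had an unadjusted p under 0.05 and DESeq2 called 0. EGR1 was among the called genes in eIF1, eIF4G1 and eIF3, and was the 1 gene called in eIF3. It was not called in eIF3 without DMSO 1 or with scaling to total counts. Of the others, NR4A2 passed the filter in eIF3 and was not called there, and EGR2, EGR3 and NR4A1 passed it in no immunoprecipitation. With no filter NR4A1 was called in eIF4G1 (log2 fold change 4.18, SE 1.02). Because EGR1 was known to respond when the genes were chosen, nothing is read from these counts.

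**Figure D2:**
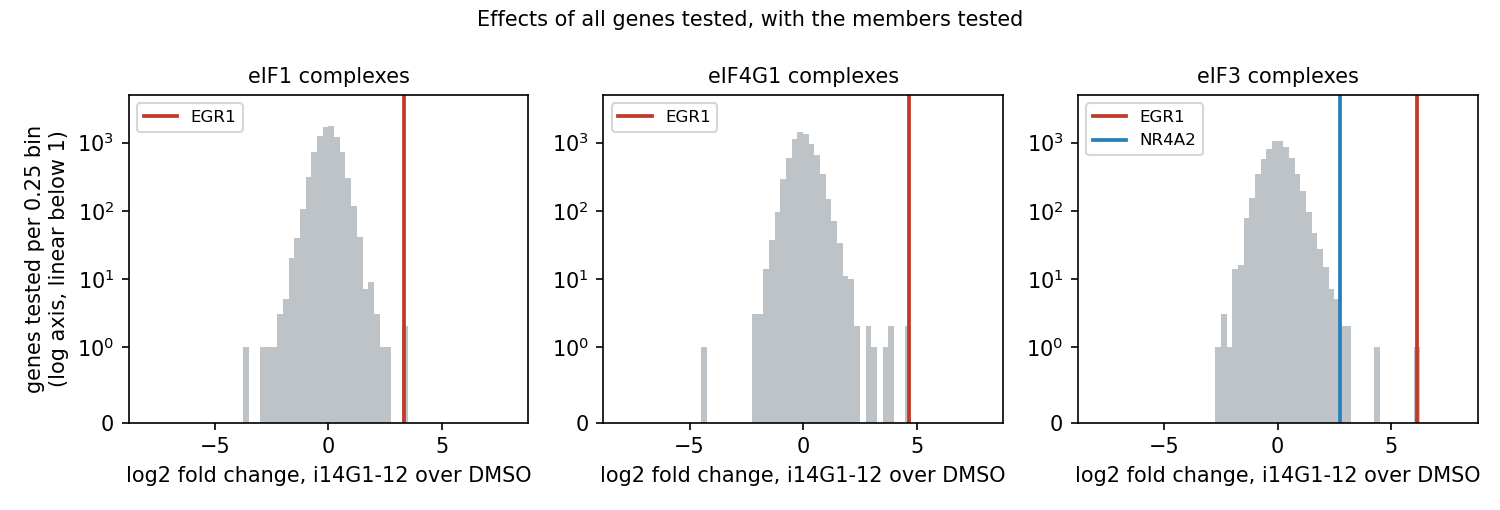
Log2 fold change of i14G1-12 over DMSO for all genes tested in eIF1, eIF4G1 and eIF3 complexes, in bins of 0.25 with the number of genes on a log axis that is linear below 1, and vertical lines at the members that were tested. EGR1 lies at 3.32, 4.66 and 6.13, at the right end of each distribution, and NR4A2 at 2.74 in eIF3.

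EGR1 also moved up the order of all genes by level per length. Ranked by CPM per kilobase among 19029 genes, it stood at 499 and 801 in the eIF3 i14G1-12 libraries, against 11487 and 7967 in DMSO. In eIF4G1 it ranked 762, 1598 and 1610 in i14G1-12, against 8199, 10557 and 10570 in DMSO. In eIF1 it ranked 1721, 3372 and 2673 in i14G1-12, against 8589, 8325 and 10112 in DMSO, and in eIF2a 4395 and 6354 in i14G1-12. DMSO ranks that rest on 1 or 2 counts depend on depth. A gene with 0 counts ranked 13190 in eIF3 DMSO 1 and 9586 in eIF3 DMSO 2, and 11306 in eIF4G1 DMSO 3. From the highest group mean to the lowest, the order of EGR1 levels was i14G1-12 in eIF3, eIF4G1, eIF1 and eIF2a, then DMSO in eIF1, eIF3 and eIF4G1. In pooled CPM the last 2 change places, at 4.29 in eIF3 and 9.56 in eIF4G1, and eIF2a DMSO, at 0 counts with limits of 11.0 and 159 CPM, has no place in the order. The ranges of eIF3 and eIF4G1 overlapped in i14G1-12, as did those of eIF4G1 and eIF1. The range of eIF2a i14G1-12 lay below that of eIF1 i14G1-12 and above every DMSO library in which EGR1 was counted. The 3 DMSO groups with EGR1 counts overlapped.

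NR4A1, a nuclear receptor induced by antigen receptor and growth factor signals, was higher in every i14G1-12 library of eIF4G1 complexes than in their DMSO libraries, but not in eIF1. In eIF4G1 it had 13, 6 and 45 counts in i14G1-12, at 46.1, 16.0 and 40.1 CPM, against 3, 0 and 0 counts in DMSO, at 2.89, 0 and 0 CPM. The groups did not overlap, and DMSO 2 and 3 allow up to 7.79 and 12.0 CPM. The pooled ratio was 20.1 (exact 95% interval 6.56 to 99.8).

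In eIF3 NR4A1 had 13 and 8 counts in i14G1-12, at 47.1 and 31.6 CPM, against 1 and 0 counts in DMSO, at 1.59 and 0 CPM. DMSO 2 allows up to 41.7 CPM, more than i14G1-12 library 2, so only DMSO 1 bears on the separation. The pooled ratio was 27.7, with a wide interval of 4.46 to 1147 because it rests on 1 DMSO count. In eIF2a it had 2 and 3 counts in i14G1-12 and 0 and 0 in DMSO, and the exact 95% interval of the ratio began at 0.661, so a difference was not detectable at this depth. In eIF1 it had 2, 9 and 0 counts in i14G1-12, at 5.996, 17.8 and 0 CPM, against 10, 8 and 0 counts in DMSO, at 11.6, 9.34 and 0 CPM. The eIF1 groups overlapped throughout, with a pooled ratio of 1.18 (0.504 to 2.64). RefSeq lists the antisense gene NR4A1AS at chr12:52058750-52059500, inside NR4A1, and the strand setting of the counting is unknown here, so reads of both cannot be told apart.

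NR4A2, the receptor NURR1 known from dopaminergic neurons, had counts in which 1 library often held most of its group. In eIF3 it had 17 and 41 counts in i14G1-12, at 61.6 and 162 CPM, against 8 and 2 counts in DMSO, at 12.8 and 27.8 CPM. The groups did not overlap, but the 2 counts of DMSO 2 have a 95% counting interval of 3.37 to 101 CPM. That interval covers the 61.6 CPM of i14G1-12 library 1. The fitted log2 fold change of NR4A2 was 2.74 (SE 0.81), 1.90 without DMSO 1 and 1.91 without i14G1-12 2. In eIF4G1 it had 39, 4 and 21 counts in i14G1-12, at 138, 10.6 and 18.7 CPM, against 8, 1 and 10 counts in DMSO, at 7.71, 2.60 and 39.8 CPM. Here the groups overlapped, and library 1 held 39 of the 64 treated counts.

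In eIF1 NR4A2 had 9, 0 and 0 counts in i14G1-12, at 27.0, 0 and 0 CPM, against 3, 33 and 2 counts in DMSO, at 3.47, 38.5 and 2.87 CPM. DMSO library b thus held 33 of the 38 DMSO counts, and the pooled ratio of 0.458 (0.195 to 0.963) rests on it. In eIF2a it had 3 and 16 counts in i14G1-12, at 19.2 and 64.8 CPM, against 9 and 0 counts in DMSO, at 33.1 and 0 CPM, which overlapped (pooled ratio 1.52, interval 0.657 to 3.82). NR4A2 and EGR3 were the members with reads in every DMSO group.

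EGR2, a regulator of hindbrain patterning and myelination, had few reads, and most came from single libraries. In eIF1 it had 1, 0 and 12 counts in i14G1-12, at 3.00, 0 and 29.1 CPM, against 0, 0 and 5 counts in DMSO, at 0, 0 and 7.17 CPM. Library c of i14G1-12 held 12 of the 13 treated counts. In eIF3 it had 1 and 6 counts in i14G1-12, at 3.63 and 23.7 CPM, against 0 counts in both DMSO libraries. The exact 95% interval of this ratio began at 1.90, and library 2 held 6 of the 7 treated counts, while library 1 lay below the 4.29 CPM that 3 counts over the DMSO group allow. In eIF4G1 the counts were 0, 3 and 0 in i14G1-12 and 0, 1 and 0 in DMSO, and in eIF2a 0 and 1 in i14G1-12 and 1 and 0 in DMSO, too few to show a difference.

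EGR3, which acts in muscle spindle development and in lymphocytes, had at most 12 counts in any library, and its highest level was 15.8 CPM. In eIF1 it had 2, 3 and 2 counts in i14G1-12, at 5.996, 5.94 and 4.85 CPM, against 11, 3 and 0 counts in DMSO, at 12.7, 3.50 and 0 CPM. The means were 5.59 ± 0.645 CPM in i14G1-12 and 5.41 ± 6.58 CPM in DMSO (SD, n = 3 each), with a pooled ratio of 0.966 (0.330 to 2.56). In eIF4G1 it had 4, 0 and 12 counts in i14G1-12 against 0, 3 and 0 in DMSO, a pooled ratio of 5.02 (1.44 to 26.9) with overlapping groups. In eIF3 it had 3 and 4 counts in i14G1-12 against 4 and 0 in DMSO, and in eIF2a 1 and 3 against 1 and 0. The eIF3 and eIF2a ratios of 2.31 and 2.89 had intervals that included 1 (0.588 to 10.8 and 0.286 to 142).

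EGR genes share a conserved zinc finger region, and the treatment of reads matching more than 1 gene is unknown here. In eIF3 i14G1-12 library 1, with 139 counts on EGR1, the other EGR genes had 1 (EGR2) and 3 (EGR3), and in library 2, with 59 on EGR1, they had 6 and 4. In eIF1 i14G1-12 library c, EGR2 had 12 counts beside 37 on EGR1. Whether any of these are shared reads was not tested.

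**Figure D3:**
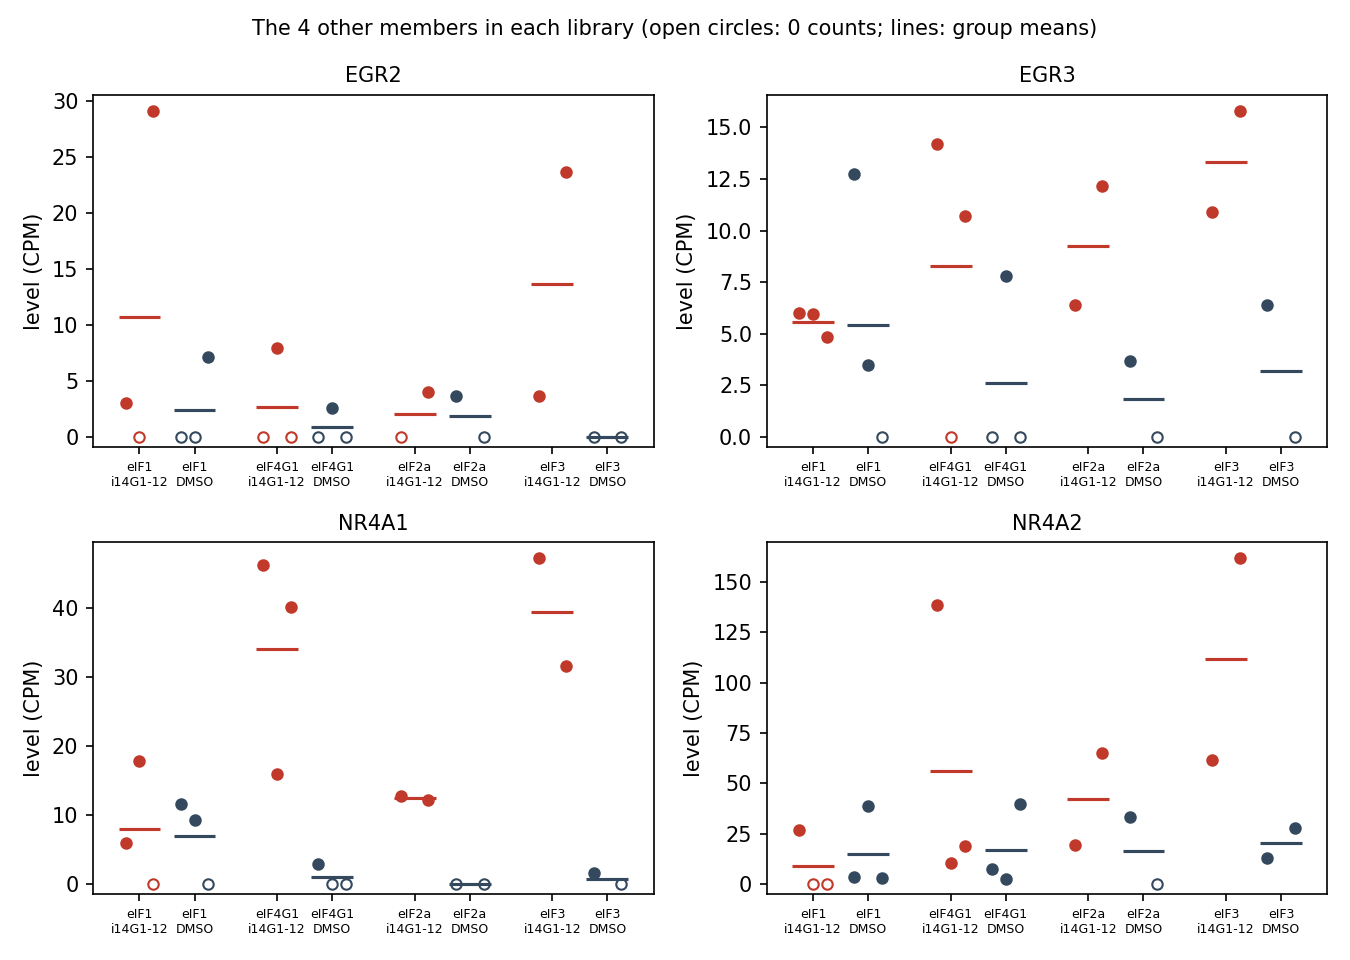
Levels of EGR2, EGR3, NR4A1 and NR4A2 in CPM, by immunoprecipitated factor and treatment, with i14G1-12 left of DMSO, each library as a circle (open at 0 counts) and group means as lines. NR4A1 lies from 16.0 to 47.1 CPM in the eIF4G1 and eIF3 i14G1-12 libraries, while their DMSO libraries with NR4A1 reads lie at 2.89 and 1.59 CPM and the other 3 had 0 counts, and in several other groups 1 library sets the mean.

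Over the 5 genes, with 0 counts taken as 0 CPM, i14G1-12 libraries were all above the DMSO libraries for 5 genes in eIF3, 3 in eIF2a (EGR1, EGR3 and NR4A1), 2 in eIF4G1 (EGR1 and NR4A1) and 1 in eIF1 (EGR1). Among all genes with at least as many counts as the least counted member, this held for 16.1% in eIF3, 23.4% in eIF2a, 6.30% in eIF4G1 and 8.11% in eIF1. In the shallow DMSO 2 libraries of eIF3 and eIF2a, 1448 and 118 genes had 10 or more counts, against 3631 to 10036 in the other 18. Nothing is read from these counts, since the genes were chosen with this contrast known.

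**Figure D4:**
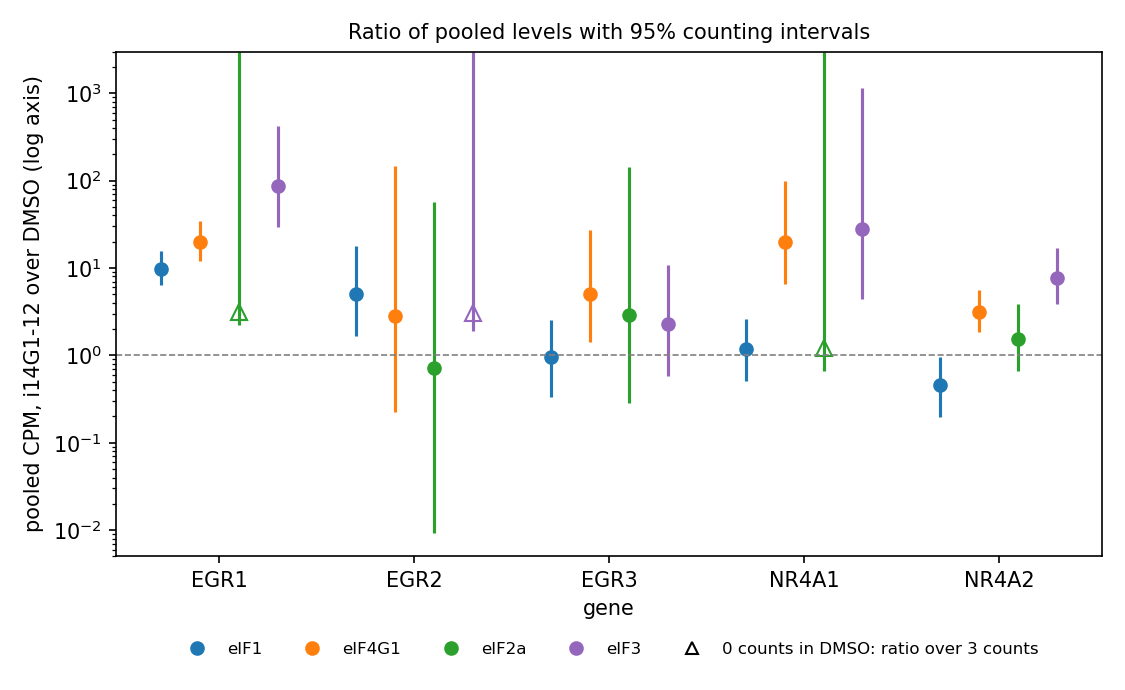
Ratio of pooled CPM, i14G1-12 over DMSO, on a log axis for each gene and immunoprecipitation, with exact 95% counting intervals as bars, the dashed line at 1, and open triangles where DMSO had 0 counts and the ratio is over 3 counts (bars run to the top of the axis). EGR1 lies above 1 in all 4 immunoprecipitations, while NR4A1 is at 1.18 and NR4A2 at 0.458 in eIF1.

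Per length, EGR1 had the highest mean of the 5 genes under i14G1-12 in eIF1, eIF4G1 and eIF3, while NR4A2 had the highest mean in every DMSO group and in eIF2a. The NR4A2 means in DMSO were set by library b in eIF1 (11.1 CPM per kilobase) and library 3 in eIF4G1 (11.5). EGR1 was above NR4A2 in the other DMSO libraries of these groups. In eIF2a DMSO, NR4A2 had 9 and 0 counts. In eIF3 i14G1-12 the levels were 117 ± 61.2 CPM per kilobase for EGR1, 32.2 ± 20.4 for NR4A2, 15.8 ± 4.43 for NR4A1, 4.58 ± 4.76 for EGR2 and 2.95 ± 0.768 for EGR3 (SD, n = 2). In eIF3 DMSO they were 2.73 ± 2.42 for EGR1, 5.84 ± 3.07 for NR4A2, 0.321 ± 0.454 for NR4A1, 0 for EGR2 and 0.706 ± 0.999 for EGR3 (SD, n = 2). In eIF2a i14G1-12, NR4A2 stood at 12.1 ± 9.30 and EGR1 at 11.0 ± 4.61 CPM per kilobase (SD, n = 2), a difference smaller than either SD.

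The share of EGR1 in the summed counts of the 5 genes was 76.0% of 167 counts in eIF1 i14G1-12 (exact 95% interval 68.8 to 82.3), against 25% of 100 in DMSO (16.9 to 34.7). In eIF4G1 it was 69.5% of 482 counts in i14G1-12 (65.2 to 73.6), against 38.1% of 42 in DMSO (23.6 to 54.4). In eIF3 it was 68.0% of 291 counts in i14G1-12 (62.3 to 73.4), against 16.7% of 18 in DMSO (3.58 to 41.4). In eIF2a it was 31.0% of 42 counts in i14G1-12 (17.6 to 47.1), against 0% of 11 in DMSO (0 to 28.5). Library by library, the share was higher in i14G1-12 without overlap in eIF1 (72.5% to 80.0%, against 20% to 36.4% in DMSO), eIF4G1 (66.5% to 82.7%, against 9.09% to 54.2%) and eIF3 (50.0% and 80.3%, against 13.3% and 33.3%). The DMSO shares rest on 24, 7 and 11 counts in eIF4G1 and on 15 and 3 in eIF3. In eIF2a the shares were 53.8% and 20.7% in i14G1-12 and 0% of 11 counts in DMSO 1. The eIF2a DMSO 2 library had no count of the 5 genes. Because the genes were chosen with the response of EGR1 known, its share is a description and no further support for that response.

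Whether the effect of i14G1-12 differed between immunoprecipitations was tested as an interaction in 1 edgeR fit to all 20 libraries, in which EGR1, NR4A1 and NR4A2 passed the filter and EGR2 and EGR3 did not. EGR1 and NR4A1 passed it only through i14G1-12 libraries, which for NR4A1 were those of eIF4G1 and eIF3, where it was high. The unadjusted values of these genes are therefore a description. None of the 3 differed after adjustment. The effect in eIF1 minus that in eIF4G1 was -1.29 for EGR1 on the log2 scale (SE 0.73, approximate 95% interval -2.72 to 0.13, edgeR adjusted p = 1.000). For NR4A1 the effects were 0.22 (SE 0.90) in eIF1 and 4.18 (SE 1.04) in eIF4G1, a difference of -3.96 (interval -6.71 to -1.22, unadjusted p = 0.00633, edgeR adjusted p = 1.000). For NR4A2 they were -0.96 (SE 0.93) in eIF1 and 1.89 (SE 0.83) in eIF4G1, a difference of -2.85 (interval -5.29 to -0.41, unadjusted p = 0.0254, edgeR adjusted p = 1.000). Without eIF1 DMSO b, the NR4A2 difference was -0.69, and without eIF1 i14G1-12 a it was -7.72, which leaves 0 counts as the treated side. In this contrast 3 of 9426 genes (0.0318%) were called.

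Tested over the 4 immunoprecipitations together, the effect had unadjusted p = 0.0287 for EGR1, 0.0161 for NR4A1 and 0.0450 for NR4A2, each with edgeR adjusted p = 1.000, and 0.0212% of genes were called. A difference between immunoprecipitations was therefore not detected for these genes after adjustment over all genes tested, which does not show that the effects were alike.

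Without the compound, the levels of EGR1, NR4A1 and NR4A2 did not differ detectably between immunoprecipitations (edgeR adjusted p = 0.707, 0.679 and 0.969, with 2.45% of genes called). EGR1 in eIF1 minus eIF4G1 was 0.19 in DMSO on the log2 scale (SE 0.61, interval -1.01 to 1.39, edgeR adjusted p = 0.946, 2.06% of genes called), and its sign turned to -0.13 with scaling to total counts. NR4A1 was 1.97 higher in eIF1 than in eIF4G1 on that scale (SE 1.11, interval -0.20 to 4.14, edgeR adjusted p = 0.480).

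Under i14G1-12 the fitted levels of EGR1 and NR4A2 differed between immunoprecipitations, with limits given below. EGR1 had means of 368 ± 192 CPM in eIF3 and 34.5 ± 14.5 CPM in eIF2a (SD, n = 2 each), with 234 ± 139 CPM in eIF4G1 and 108 ± 52.8 CPM in eIF1 (SD, n = 3 each). The 4 groups differed with edgeR adjusted p = 0.000102, where 7.00% of 9426 genes were called, and the adjusted p stayed between 9.41e-06 and 0.00449 when each library was left out. NR4A2, at 111.7 ± 70.8 CPM in eIF3, 42.0 ± 32.3 in eIF2a (SD, n = 2 each), 55.9 ± 71.5 in eIF4G1 and 8.99 ± 15.6 in eIF1 (SD, n = 3 each), also passed (edgeR adjusted p = 0.0337). That call was lost without eIF1 i14G1-12 b or c, eIF3 i14G1-12 2 or either eIF2a DMSO library (adjusted p up to 0.185) and at a minimum of 30 counts. NR4A1 did not pass (edgeR adjusted p = 0.244). The i14G1-12 libraries of this test also enter the treatment comparison with which the genes were chosen. EGR1 and NR4A1 passed the filter only through such libraries. These p-values therefore describe the fit and are not independent evidence of a difference.

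In eIF1 minus eIF4G1 under i14G1-12, EGR1 was -1.10 on the log2 scale (SE 0.39, interval -1.86 to -0.34, edgeR adjusted p = 0.146), NR4A1 -1.99 (SE 0.85, adjusted p = 0.259) and NR4A2 -2.68 (SE 0.90, adjusted p = 0.126). All 3 were lower in eIF1, none passed, and 1.09% of genes were called. These i14G1-12 libraries also enter the comparison with which the genes were chosen. NR4A1 passed the filter only through those of eIF4G1 and eIF3. The intervals and p-values of this contrast therefore describe the fit as well and are not independent evidence. With scaling to total counts EGR1 passed, at -1.49 (edgeR adjusted p = 0.0369). TMM raised the eIF1 levels, since for i14G1-12 library a it set an effective size of 333544 for 564021 counts. Factor, antibody, HA tag, depth and library batch cannot be told apart in comparisons between immunoprecipitations.

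The genes whose log2 CPM over the 20 libraries was most like that of EGR1 were ENSG00000170345 (Pearson's r = 0.886) and ENSG00000104368 (r = 0.827), out of 9425 genes with a mean of at least 10 CPM in 1 group. NR4A1 ranked 4 (r = 0.814) and NR4A2 ranked 1213 (r = 0.420). The points share treatment and library depth, so r is a description and no p is given. ENSG00000170345 had 149 ± 76.6 CPM in eIF3 i14G1-12 and 9.35 ± 6.46 in DMSO (SD, n = 2 each), 86.4 ± 85.0 in eIF4G1 i14G1-12 and 2.70 ± 2.60 in DMSO, and 60.5 ± 39.6 in eIF1 i14G1-12 and 5.50 ± 5.36 in DMSO (SD, n = 3 each). In eIF2a it had 9.59 ± 13.6 CPM in i14G1-12 and 7.35 ± 10.4 in DMSO (SD, n = 2 each), where EGR1 had reads only in i14G1-12.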

How the data were processed

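Selective translation complex profiling (TCP-seq) of HEK 293T cells was analysed. The 4 tables the authors deposited, 1 per immunoprecipitation, hold unnormalised read counts per gene. Per the submitters' processing notes, cutadapt, Trimmomatic, Bowtie, HISAT2, featureCounts and build hg38 were used, with no versions given here. Per the file headers, reads were counted on 1 sequence per gene ID, 2485 to 4514 nt long for the 5 genes. Treatment was fitted separately for each immunoprecipitation in edgeR 4.0.16 (R 4.3.3, filterByExpr at a minimum count of 10, TMM, quasi-likelihood test, Benjamini-Hochberg, threshold 0.05), and differences between immunoprecipitations in 1 fit to 20 libraries, whose TMM factors also gave CPM. An SE is the absolute log2 value over the square root of F. Pooled ratios are summed counts over summed effective sizes, with exact conditional binomial intervals. Scripts were tested on simulated counts. Alternatives were DESeq2 1.42.0, other scaling and filters, the replicate number as a block and leaving out each library. The genes, lists and rules were chosen with earlier results of these data known. The text names the 5 genes and the 2 IDs most like EGR1. No pair of replicates was as close as counting noise alone allows (chi-square per degree of freedom 1.34 to 10.2).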

Additional observations from a re-analysis of the deposited data

How the results depend on the processing

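EGR1's log2 fold change kept its sign in every setting in which it was fitted. Leaving out each library it ranged from 2.91 to 3.58 in eIF1, 4.08 to 5.53 in eIF4G1 and 4.59 to 6.70 in eIF3, and for NR4A2 in eIF3 from 1.90 to 3.30. DESeq2 gave no adjusted p for EGR1 in eIF1 and eIF4G1. NR4A1 was called in eIF4G1 with no filter only. The number of genes called moved with the filter, the tool and the libraries. The 38 in eIF1 became 129 with no filter, 70 at a minimum of 30 counts, 174 by DESeq2, 4 in 1 fit to 20 libraries and 2 to 64 with single libraries left out. The 25 in eIF4G1 became 68 with no filter, 40 at a minimum of 30, 91 by DESeq2 and 4 to 46 leaving out each library. The 0 in eIF2a became 0 to 13, and the 1 in eIF3 became 0 with total counts, 2 with no filter, 3 by DESeq2, 5 in 1 fit to 20 libraries and 0 to 3 with single libraries left out. For the interaction of eIF1 and eIF4G1, leaving out each library gave 1 to 3 genes, and for that of all 4 it gave 1 to 5, and no filter 5. Levels across the 4 in DMSO gave 231 genes, 125 with total counts and 56 to 308 leaving out each library, and in i14G1-12 231 to 1234 against 660. Levels in eIF1 minus eIF4G1 gave 38 to 267 against 194 in DMSO, and 11 to 187 against 103 in i14G1-12. The DMSO difference of EGR1 between eIF1 and eIF4G1 (0.192) was -0.131 with total counts and -0.0372 to 1.07 leaving out each library. For NR4A2 (0.172) it was -0.108 with total counts and -1.99 to 1.30 leaving out each library, lowest without eIF1 DMSO b. Under i14G1-12, total counts took EGR1 to -1.49 (adjusted p = 0.0369), and NR4A2 passed with no filter (-2.65) and without eIF1 i14G1-12 a (-7.55). Leaving out each library, EGR1 ranged there from -1.55 to -0.54 and NR4A2 from -7.55 to -1.01, both weakest without eIF4G1 i14G1-12 library 1. Interactions of EGR1 between eIF1 and eIF4G1 ranged from -2.18 to -0.727 and of NR4A1 from -6.64 to -3.40. Leaving out eIF2a DMSO 2 and eIF3 DMSO 2 together, added after the data were seen, gave adjusted p = 0.0503 for NR4A2 levels in i14G1-12, and no other call of the 3 genes changed. The cause was not tested in any of these.

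Replicate numbers were not shown to pair the libraries: deviations of libraries with the same number correlated at 0.00655, -0.103 and -0.147 in eIF4G1, -0.0235 in eIF2a and 0.560 in eIF3, where there are only 2 numbers. With the replicate block 31 genes were called in eIF4G1, 0 in eIF2a and 38 in eIF3, and EGR1's log2 fold change was 4.97 in eIF4G1 and 6.60 in eIF3. The eIF1 columns carry no replicate number of the labels.

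These genes had the fewest counts in DMSO, where the 5 together had 100 counts (eIF1), 42 (eIF4G1), 11 (eIF2a) and 18 (eIF3). Total counts of all genes were higher in DMSO than in i14G1-12 in eIF1 (2913945 against 1668213) and eIF3 (641616 against 516372). They were lower in DMSO in eIF4G1 (1596246 against 1808285) and eIF2a (279849 against 396862).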

Other observations

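Within the treated eIF3 libraries the 5 genes did not order alike. EGR1 and NR4A1 were higher in i14G1-12 library 1, at 504 and 47.1 CPM, than in library 2, at 233 and 31.6 CPM. NR4A2, EGR2 and EGR3 were higher in library 2, at 162, 23.7 and 15.8 CPM, than in library 1, at 61.6, 3.63 and 10.9 CPM. For NR4A1 (13 and 8 counts in libraries 1 and 2), EGR2 (1 and 6) and EGR3 (3 and 4) the 95% counting intervals of the libraries overlapped. The order of these genes may therefore be counting error, while the intervals of EGR1 and NR4A2 did not overlap. EGR1 held 80.3% of the 173 counts of the 5 genes in library 1 and 50.0% of 118 in library 2. With 1 library each, these are values without a test.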
